A study of Mus musculus with 8 samples.

Results

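The mitochondrial genome of the mouse encodes 13 proteins, all of them subunits of the machinery of oxidative phosphorylation. The genes described here were the 6 of these 13 whose products belong to complexes III, IV and V, namely mt-Cytb of complex III, mt-Co1, mt-Co2 and mt-Co3 of complex IV, and mt-Atp6 and mt-Atp8 of complex V. They were taken by name from the 22430 genes listed in the count table, of which 16730 passed the filter on low counts, and all 6 passed it. RNA was extracted from brain (whole hemispheres were homogenised) of male C57Bl/6JRj mice obtained from a breeder, with no transgene or treatment named in the sources used here. The groups were 4 young adult mice, aged 6 months (6m), and 4 aged mice, aged 24 months (24m), with 1 library per animal. Polyadenylated RNA was sequenced as directional, paired-end Illumina libraries, and the comparison asks how brain mRNA levels differ with age. Library totals lay between 63460940 and 103462414 counts, and the deepest library, 24m replicate 1, stood apart, with a chi-square per degree of freedom of 182 to 426 against each of the other 24m libraries, which differed from each other by 13.1 to 61.9. Markers of neurons, astrocytes, oligodendrocytes, microglia and endothelium were all detected.

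Complex III passes electrons from ubiquinol to cytochrome c, complex IV passes them on to oxygen, and complex V uses the resulting proton gradient to make ATP. Each complex joins mitochondrially encoded core subunits with a larger number of subunits that are encoded in the nucleus and imported. Mitochondrial genes are transcribed as long RNAs from both strands of the circular genome, and these RNAs are cut at the transfer RNAs that lie between the genes. The messengers so released differ in stability, so genes read from the same long RNA need not reach the same level. mt-Atp8 and mt-Atp6 stay together on a shared messenger from which both proteins are made.

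All 6 genes lie on the same (+) strand of chromosome M of GRCm39, have no introns and are annotated as a single exon each. mt-Co1 (ENSMUSG00000064351) spans chrM:5328-6872 and mt-Co2 (ENSMUSG00000064354) chrM:7013-7696. mt-Atp8 (ENSMUSG00000064356) at chrM:7766-7969, mt-Atp6 (ENSMUSG00000064357) at chrM:7927-8607 and mt-Co3 (ENSMUSG00000064358) at chrM:8607-9390 run into each other with no transfer RNA between them. mt-Cytb (ENSMUSG00000064370) lies apart, at chrM:14145-15288. Their lengths run from 204 bases in mt-Atp8 to 1545 bases in mt-Co1. The reading frames of mt-Atp8 and mt-Atp6 overlap by 43 bases, in capitals in the sequence of mt-Atp8 below, which is shown whole because this gene departed most from the others. The second sequence, chrM:8590-8624, is the junction of mt-Atp6 and mt-Co3, where the capital is the single base that ends the former and begins the latter. Both are the + strand of the GRCm39 reference, written 5′ to 3′.
mt-Atp8: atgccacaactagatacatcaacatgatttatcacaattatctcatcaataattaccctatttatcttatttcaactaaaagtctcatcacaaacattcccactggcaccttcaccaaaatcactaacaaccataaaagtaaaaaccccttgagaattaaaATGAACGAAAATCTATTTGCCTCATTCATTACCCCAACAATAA
mt-Atp6 and mt-Co3: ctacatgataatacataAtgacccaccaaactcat
How reads over these shared bases were assigned is not stated in the sources used here, so the levels of mt-Atp8, in which 43 of 204 bases are shared, and of mt-Atp6 carry that uncertainty.

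The nuclear genome holds a near-identical copy of part of this region. The copy, at chr1:24650616-24655269 on the - strand, aligned to bases 6390 to 11042 of chromosome M with 99.94% identity, 1 inserted base and 2 mismatches, counted here by the position on chromosome M with the mitochondrial base first. A6393T lies in mt-Co1 and T9461C in mt-Nd3, and the insertion lies in a transfer RNA gene. The copy takes in 100% of mt-Co2, mt-Atp8, mt-Atp6 and mt-Co3 and 31.3% of mt-Co1, but 0% of mt-Cytb. Of all windows of 150 bases, 100% were identical in the copy for the first 4 of these genes, 23.6% for mt-Co1 and 0% for mt-Cytb. Less similar copies cover more of the genome, with 15 nuclear alignments of at least 90% identity in all. A copy on chromosome 2 spans bases 4441 to 7699, with all of mt-Co1 and mt-Co2, at 97.36% identity, and a copy on chromosome 4 spans bases 12488 to 15359, with all of mt-Cytb, at 93.01%. Reads from windows identical in the chromosome 1 copy cannot be assigned to either place by sequence alone, and how they were counted is not stated in the sources used here.

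Each of the 6 genes had a lower level in every 24m library than in any 6m library. Levels are given as counts per 1e+06 counts of a library (CPM), with totals adjusted by TMM, the trimmed mean of M values, and library values follow in the order of replicates 1 to 4. By the thresholds of the study (0.05 for the adjusted p and 0.58 for the size of the log2 fold change), 5 of the 6 genes were called lower and mt-Atp8 was not; over all 16730 tested genes 18.3% were called lower. The 5 genes became 2 with quantile normalisation and DESeq2 and 0 with a trend over gene length removed. All 6 passed the adjusted p alone, against 29.9% of tested genes that were lower by that criterion, and 26.8% of tested genes had no overlap in the same direction. The level at 24m ranged from 39.8% of that at 6m in mt-Co2 to 72.3% in mt-Atp8. In bulk tissue, fewer cells of a type and less RNA per cell cannot be told apart.

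mt-Cytb encodes cytochrome b, which carries the quinone-binding sites of complex III. Its level was 4649.1, 4457.1, 4732.2 and 3362.1 CPM in the 6m libraries and 1813.8, 2207.9, 1777.5 and 1838.2 CPM in the 24m libraries. The lowest 6m library was replicate 4, which was still 1.52-fold above the highest 24m library. The mean was 4300.1 ± 636 CPM (SD, n = 4) at 6m and 1909.4 ± 201 CPM (SD, n = 4) at 24m. mt-Cytb fell by 1.17 ± 0.13 (SE) on the log2 scale with an edgeR quasi-likelihood adjusted p of 0.00012.

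mt-Co1 encodes the subunit of complex IV that holds the site of oxygen reduction, and it was the gene with the largest raw count in all 8 libraries. Its level was 22787.2, 20798.3, 21094.7 and 18757.5 CPM in the 6m libraries and 10802.7, 10936.4, 9409.6 and 8439.1 CPM in the 24m libraries. The ages were separated by a factor of 1.72 between the lowest 6m and the highest 24m library. mt-Co1 fell by 1.08 ± 0.13 (SE) on the log2 scale (edgeR adjusted p = 0.000133), from 20859.4 ± 1652.6 to 9896.9 ± 1192.2 CPM (mean ± SD, n = 4 per age).

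mt-Co2 encodes the subunit that accepts electrons from cytochrome c, and it fell the most of the 6. Its level was 6536.7, 6057.6, 6443.4 and 4966.1 CPM in the 6m libraries and 2518.3, 2642.7, 2240.5 and 2153.1 CPM in the 24m libraries. All 24m libraries lay well under the 6m libraries, with a gap of 1.88-fold between the nearest 2. The fall was 1.33 ± 0.12 (SE) on the log2 scale (edgeR adjusted p = 4.91e-05), from a mean of 6000.9 ± 720 CPM to one of 2388.7 ± 230 CPM (SD, n = 4 per age).

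mt-Co3 encodes the remaining core subunit of complex IV, which does not itself carry electrons, and it ranked next by raw count in all 8 libraries. Its level was 14969.9, 12631.3, 12370.8 and 15083.1 CPM in the 6m libraries and 6989.1, 6177.2, 6256.5 and 5352.8 CPM in the 24m libraries. Here 6m replicate 4 was the highest 6m library, whereas it was the lowest for the other 5 genes. mt-Co3 fell by 1.15 ± 0.13 (SE) on the log2 scale (edgeR adjusted p = 9.59e-05), from 13763.8 ± 1462.7 to 6193.9 ± 669 CPM (mean ± SD, n = 4 per age).

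mt-Atp6 encodes the membrane subunit of ATP synthase through which protons pass. Its level was 6803.5, 6092.0, 6050.2 and 5576.8 CPM in the 6m libraries and 3478.4, 3474.8, 3114.2 and 3258.5 CPM in the 24m libraries. The 24m libraries were close together, with a coefficient of variation of 5.33%, the smallest of the 6 genes. mt-Atp6 fell by 0.88 ± 0.10 (SE) on the log2 scale (edgeR adjusted p = 0.00012), from 6130.6 ± 506 to 3331.5 ± 178 CPM (mean ± SD, n = 4 per age).

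mt-Atp8 encodes a small membrane subunit of the same enzyme and differed the least between ages. Its level was 1555.4, 1611.9, 1575.9 and 1274.3 CPM in the 6m libraries and 1125.2, 1152.5, 966.0 and 1108.3 CPM in the 24m libraries. The ages did not overlap, but the lowest 6m library was only 1.11-fold above the highest 24m library. The log2 fold change was -0.47 ± 0.11 (SE) with an edgeR adjusted p of 0.00371, which passed the p but not the fold threshold, and the means were 1504.4 ± 155 and 1088.1 ± 83.2 CPM (SD, n = 4 per age). Scaling by library totals in place of TMM gave mt-Atp8 a log2 fold change of -0.25 and an adjusted p of 0.072. That scaling moved the median log2 fold change of all tested genes from about 0 to 0.21, so a value of -0.25 for mt-Atp8 stood about as far below the median as before. Quantile normalisation with DESeq2 gave mt-Atp8 -0.09 (adjusted p = 0.552), and removing a trend over gene length gave 0.29, in the other direction (edgeR adjusted p = 0.081).

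**Figure D1:**
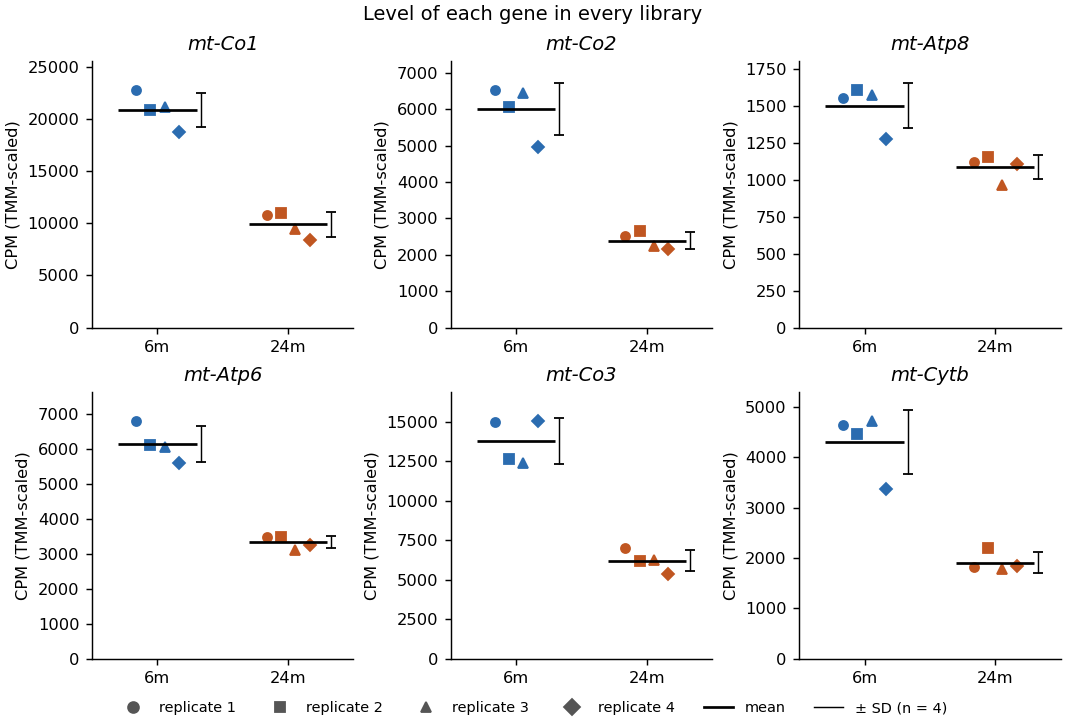
Level of each of the 6 genes in CPM (TMM-scaled, linear axes from 0) in the 4 libraries of each age, with a symbol per replicate, the mean as a line and the SD as a bar. No 24m library reaches a 6m library in any panel, and mt-Atp8 has the narrowest gap, 1.11-fold.

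Levels of different genes were compared per kilobase of gene, in CPM per kb. At 6m the order was mt-Co3 (17555.8 ± 1865.7), mt-Co1 (13501.2 ± 1069.6), mt-Atp6 (9002.4 ± 743), mt-Co2 (8773.3 ± 1053.2), mt-Atp8 (7374.4 ± 761) and mt-Cytb (3758.8 ± 556; mean ± SD, n = 4). The ranges of mt-Atp6 and mt-Co2 overlapped, as did those of mt-Co2 and mt-Atp8, and the other neighbours in this order did not overlap. At 24m the order was mt-Co3 (7900.4 ± 854), mt-Co1 (6405.8 ± 772), mt-Atp8 (5333.6 ± 408), mt-Atp6 (4892.0 ± 261), mt-Co2 (3492.2 ± 336) and mt-Cytb (1669.0 ± 175). In this age the first 4 genes overlapped from neighbour to neighbour, while mt-Co2 lay below mt-Atp6 and mt-Cytb below mt-Co2 with no overlap. mt-Atp8 was thus next to last at 6m and above mt-Atp6 and mt-Co2 at 24m, although its range at 24m overlapped those of mt-Co1 and mt-Atp6.

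Together the 6 genes took 5.25%, 4.94%, 4.97% and 4.35% of all counts in the 6m libraries and 2.68%, 2.92%, 2.58% and 2.51% in the 24m libraries. The means were 4.88 ± 0.379% and 2.67 ± 0.18% (SD, n = 4 per age), with no overlap. Within the 13 mitochondrially encoded protein genes, by contrast, the 6 held 80.5 ± 1.59% of counts at 6m and 80.2 ± 1.72% at 24m (SD, n = 4), and the ages overlapped. The balance among them did shift. Of the counts of the 13 genes, mt-Atp8 took 2.30 ± 0.162% at 6m and 3.53 ± 0.272% at 24m, and mt-Atp6 took 9.38 ± 0.174% and 10.8 ± 0.511%, both higher in every 24m library. mt-Co2 took 9.16 ± 0.573% at 6m and 7.72 ± 0.112% at 24m, lower in every 24m library. The shares of mt-Co1 (31.9 ± 0.214% and 31.9 ± 1.45%), mt-Co3 (21.2 ± 3.01% and 20 ± 1.6%) and mt-Cytb (6.56 ± 0.644% and 6.18 ± 0.463%) overlapped between ages.

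A ratio of 2 genes counted in the same library does not depend on how libraries are scaled. Thus 4 ratios of raw counts were compared by an exact two-sided permutation test over the 70 assignments of libraries to ages. The smallest p of this test is 0.0286. The test was chosen with earlier results of these data known, and the ratios restate differences between the fold changes above. The ratio of mt-Atp8 to mt-Atp6, neighbours whose reading frames share 43 bases, was 0.229, 0.265, 0.26 and 0.228 in the 6m libraries and 0.323, 0.332, 0.31 and 0.34 in the 24m libraries. Every 24m library was above every 6m library. The ratio rose 1.33-fold, by 0.41 on the log2 scale, from 0.246 ± 0.0197 to 0.326 ± 0.0127 (SD, n = 4 per age, exact p = 0.0286, adjusted over the 4 ratios 0.0381). These 2 genes lie on a shared messenger, so their ratio does not compare separate messengers. It also carries the unstated assignment of reads over the 43 shared bases.

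The ratio of mt-Co3 to mt-Atp6, the next pair of neighbours on the genome, was 2.2, 2.07, 2.04 and 2.7 in the 6m libraries and 2.01, 1.78, 2.01 and 1.64 in the 24m libraries. The ages did not overlap, but 3 of the 6m libraries lay close to the highest 24m libraries. The means were 2.26 ± 0.307 and 1.86 ± 0.181 (SD, n = 4), a log2 difference of -0.27 (exact p = 0.0286, adjusted 0.0381). The ratio of mt-Co2 to mt-Co1, both of complex IV, was 0.287, 0.291, 0.305 and 0.265 at 6m and 0.233, 0.242, 0.238 and 0.255 at 24m, again with no overlap. Its log2 difference was -0.25 (exact p = 0.0286, adjusted 0.0381, n = 4 per age). With a trend over gene length removed, mt-Co2 (-0.55) and mt-Co1 (-0.48) had log2 fold changes closer together than in the main fit. Those of mt-Atp8 (0.29), mt-Atp6 (-0.09) and mt-Co3 (-0.39) stayed about as far apart. The ratio of mt-Cytb to mt-Co1, which compares complex III with complex IV and genes far apart on the genome, was 0.205 ± 0.0194 at 6m and 0.194 ± 0.0211 at 24m, and the ages overlapped (exact p = 0.486, adjusted 0.486, n = 4 per age).

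**Figure D2:**
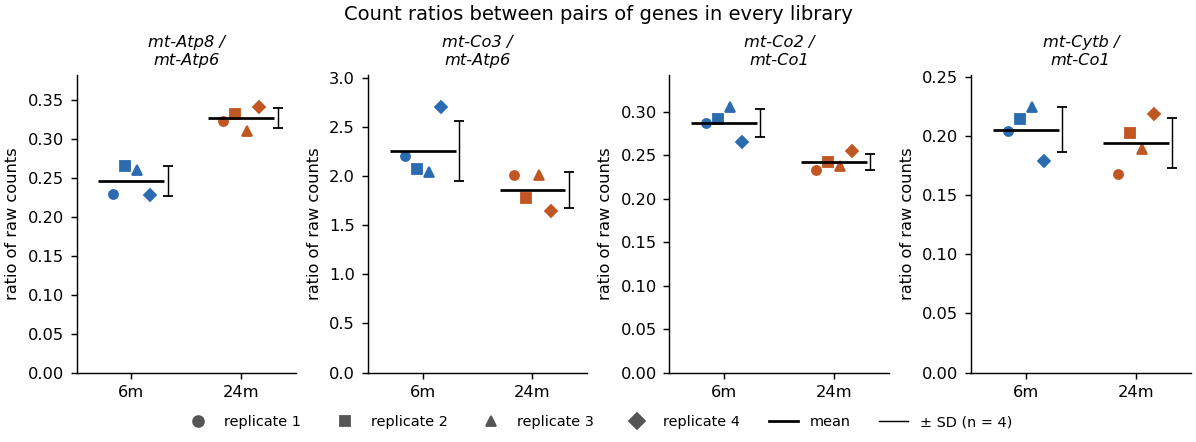
Ratio of raw counts of 4 pairs of genes (unitless, linear axes from 0) in the 4 libraries of each age, with a symbol per replicate, the mean as a line and the SD as a bar. The ratio of mt-Atp8 to mt-Atp6, which lie on a shared messenger, is higher in every 24m library (mean 0.326 against 0.246). Those of mt-Co3 to mt-Atp6 and mt-Co2 to mt-Co1 are lower, and that of mt-Cytb to mt-Co1 overlaps between ages.

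Over all 8 libraries, the log2 levels of the 6 genes followed each other, with Pearson r between 0.83 and 0.99 over the 15 pairs, values that take in the difference between ages. Once the mean of each age was removed, r ran from -0.38 to 0.90 over the same 8 libraries. mt-Co1 and mt-Co2 (r = 0.90), mt-Co2 and mt-Cytb (0.89) and mt-Cytb and mt-Atp8 (0.85) stayed close. mt-Co3 did not follow mt-Co2 (0.03), mt-Cytb (-0.36) or mt-Atp8 (-0.38), and 6m replicate 4 was highest of its age in mt-Co3 and lowest in the others. These values are descriptions over few libraries that share depth and scaling. Outside the mitochondrial genome, the 5 genes most like the 6, by mean Pearson r of log2 CPM over the 8 libraries among 8772 genes, were Denr (0.977), Hpf1 (0.976), Snrpb2 (0.974), Ier3ip1 (0.974) and Dnajc19 (0.974). With the age means removed, their mean r was 0.66, 0.71, 0.65, 0.68 and 0.68. Denr, for example, had 62 ± 3.7 CPM at 6m and 34.2 ± 1.75 CPM at 24m (SD, n = 4).

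The other mitochondrially encoded genes are the 7 subunits of complex I, and 5 of these 7 were called lower, against 18.3% of all tested genes, or 0 of 7 with the length trend removed. Their median log2 fold change was -1.06, against -1.11 over the 6 genes of complexes III to V and about 0 over all tested genes. The values ran from -1.31 ± 0.12 (SE) in mt-Nd1 to -0.53 ± 0.16 (SE) in mt-Nd5, with edgeR adjusted p of 4.1e-05 and 0.0146. mt-Nd5 had 1147.7 ± 216 CPM at 6m and 796 ± 110 CPM at 24m (SD, n = 4) with overlapping ages. mt-Atp8 was thus not alone among the 13 genes in missing the fold threshold.

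The nuclear partners of the same complexes were examined by lists of subunits. In complex III, where mt-Cytb is the mitochondrially encoded subunit, 5 of 9 nuclear genes were called lower and none higher, against 18.3% and 25.3% of all tested genes, with a median log2 fold change of -1.20. Uqcr11, a small accessory subunit, fell by 1.32 ± 0.30 (SE; edgeR adjusted p = 0.00379). The core protein gene Uqcrc1, the most abundant of the list, had -0.43 ± 0.16 (SE; edgeR adjusted p = 0.0411) and was not called, and Uqcrc2, the other core protein gene, had 0.02 ± 0.07 (SE; edgeR adjusted p = 0.847). mt-Cytb, with -1.17, therefore lay near the small nuclear subunits in size of change.

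In complex IV, 17 of 18 tested nuclear genes were called lower and none higher, against the same shares of all tested genes (18.3% and 25.3%), and 10 were called lower with the length trend removed. The median was -1.03, beside -1.08, -1.33 and -1.15 for mt-Co1, mt-Co2 and mt-Co3. The list ran from Cox6c, which fell by 1.29 ± 0.09 (SE; edgeR adjusted p = 2.21e-05), to Cox7a2l, a factor that joins complexes III and IV, which fell by 0.71 ± 0.13 (SE; edgeR adjusted p = 0.00149). Cox4i1, the most abundant, had 3328.6, 2751.5, 2811.6 and 3220.6 CPM in the 6m libraries and 2527.9, 1396.5, 1326.7 and 1087.0 CPM in the 24m libraries. In Cox4i1 the 24m replicate 1 stood close to the 6m libraries, whereas in mt-Co1, mt-Co2 and mt-Co3 the same library was within or near the range of the other 24m libraries. The genes called lower include some at low levels, namely Cox4i2, Cox6a2, Cox6b2, Cox7a1 and Cox7b2, with mean levels of 4.6, 13.7, 8.06, 6.95 and 0.353 CPM. Cox8b, which was not called, had 3.71 CPM. Cox8c was listed but too low to be tested.

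In complex V, 15 of 18 nuclear genes were called lower and none higher, where 18.3% and 25.3% of all tested genes were, with a median of -1.0 beside -0.88 for mt-Atp6 and -0.47 for mt-Atp8. Atp5mj, a small membrane subunit, fell by 1.32 ± 0.14 (SE; edgeR adjusted p = 8.63e-05). The 5 genes of the F1 part differed among themselves. Atp5f1a, the alpha subunit, stood at 0.04 ± 0.09 (SE; edgeR adjusted p = 0.739), Atp5f1c, the gamma subunit, at -0.23 ± 0.13 (SE; edgeR adjusted p = 0.138), and Atp5f1b, the beta subunit and the most abundant of the list, at -0.30 ± 0.11 (SE; edgeR adjusted p = 0.0382) without a call. The delta and epsilon subunits, Atp5f1d with -0.99 ± 0.18 (SE; edgeR adjusted p = 0.00104) and Atp5f1e with -1.32 ± 0.24 (SE; edgeR adjusted p = 0.00118), were called lower. Of the 3 genes of complex V that were not called, 2 also missed the adjusted p. Atp5f1c, Atp5f1d and Atp5f1e were picked for mention after their values were seen.

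**Figure D3:**
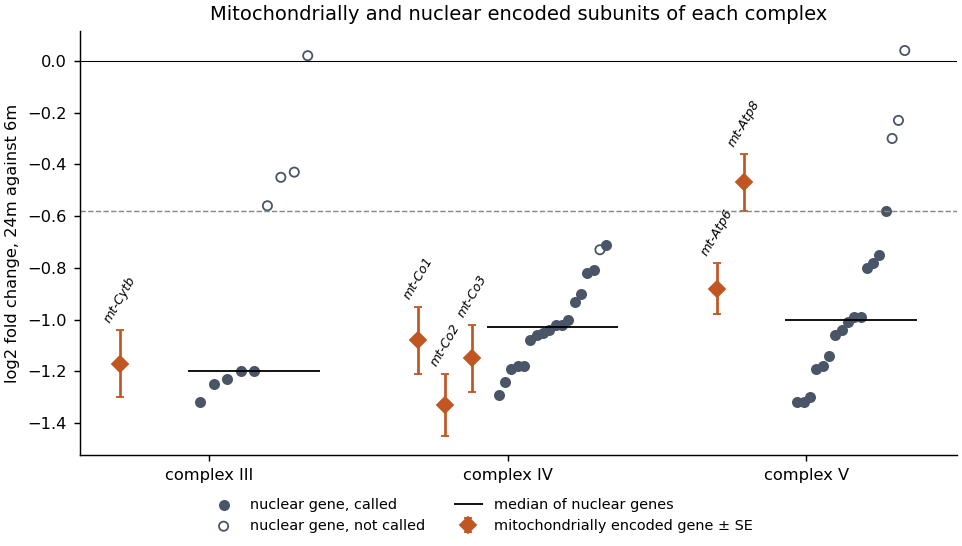
Log2 fold change (24m against 6m, edgeR) of the mitochondrially encoded genes of complexes III, IV and V (diamonds with SE) and of the tested nuclear subunits of each (circles, filled where called; line, median of the nuclear genes), with the fold threshold as a dashed line. The nuclear medians are -1.20, -1.03 and -1.0, and mt-Atp8 is the only mitochondrially encoded gene shown above the threshold.

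Assembly factors were more mixed. In complex IV, 13 of 22 were called lower and 4 higher, against 18.3% and 25.3% of all tested genes, with a median of -0.67. With library totals in place of TMM, 7 of the 22 were called lower, where 1746 of the 16730 tested genes were. Cox17, the copper chaperone that serves the metal sites of mt-Co1 and mt-Co2, fell by 1.28 ± 0.13 (SE; edgeR adjusted p = 6.92e-05), and Cox15, which makes heme A for mt-Co1, rose by 1.04 ± 0.20 (SE; edgeR adjusted p = 0.00145). Taco1, which promotes translation of mt-Co1, rose by 0.70 ± 0.11 (SE; edgeR adjusted p = 0.000621), a gene named after its value was seen. In complex III, 2 of 6 factors were called lower, from Uqcc3, which acts in the assembly of cytochrome b and fell by 1.21 ± 0.17 (SE; edgeR adjusted p = 0.000323), to Ttc19 with 0.36 ± 0.15 (SE; edgeR adjusted p = 0.0535). In complex V, 2 of 5 were called lower, from Fmc1, which fell by 1.11 ± 0.20 (SE; edgeR adjusted p = 0.00111), to Atpaf1 with 0.49 ± 0.10 (SE; edgeR adjusted p = 0.00211), which missed the fold threshold.

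Genes that maintain, transcribe and process mitochondrial DNA and RNA had medians nearer to 0 than the 6 genes, without adjustment for gene length. The share of all tested genes called lower was 18.3%. By the adjusted p alone, 29.9% of all tested genes were lower. The counts were 8 of 16 for replication and transcription, 11 of 21 for RNA processing and 6 of 11 for translation factors. In 7, 12 and 6 of these genes every 24m library was below every 6m library, against 26.8% of tested genes. Of 16 genes of mitochondrial DNA replication and transcription, 5 were called lower and none higher, with a median of -0.27, from Ssbp1, the single-stranded DNA binding protein, which fell by 0.82 ± 0.11 (SE; edgeR adjusted p = 0.000266), to the transcription factor Tfb2m with 0.54 ± 0.18 (SE; edgeR adjusted p = 0.0269). The mitochondrial RNA polymerase Polrmt had -0.11 ± 0.09 (SE; edgeR adjusted p = 0.289) and the DNA packaging and transcription factor Tfam -0.02 ± 0.11 (SE; edgeR adjusted p = 0.908), both chosen for their role after the values were seen. Of 21 genes of mitochondrial RNA processing and stability, 6 were called lower and none higher, with a median of -0.38. Slirp, whose product binds and stabilises mitochondrial messengers, fell by 1.02 ± 0.12 (SE; edgeR adjusted p = 0.000124), whereas its partner Lrpprc, also named after its value was seen, had -0.23 ± 0.15 (SE; edgeR adjusted p = 0.218), and Ptcd1 had 0.40 ± 0.08 (SE; edgeR adjusted p = 0.00242) without reaching the fold threshold. Of 11 translation factors 2 were called lower (median -0.25), from Tsfm, an elongation factor that fell by 0.82 ± 0.13 (SE; edgeR adjusted p = 0.000513), to Gfm1 with 0.13 ± 0.10 (SE; edgeR adjusted p = 0.283). These counts moved with the processing. With library totals in place of TMM, where 1746 of the 16730 tested genes were called lower, 1 gene was called lower in each of the 3 lists. Quantile normalisation with DESeq2, where 3891 of the 16730 tested genes were called lower, gave 8 genes of replication and transcription. Removing the length trend, where 2886 of the 16730 were, gave 10 of RNA processing and 4 translation factors. The count of 5 for replication and transcription was 3 when replicate 1 or 3 of 6m or replicate 3 or 4 of 24m was left out. The count of 6 for RNA processing was 3 without 24m replicate 4, and that of 2 for translation factors was 1 when replicate 4 of 6m or replicate 3 or 4 of 24m was left out.

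Of 11 genes often used as measures of mitochondrial amount, 1 was called lower and 1 higher, where 18.3% and 25.3% of all tested genes were, with a median log2 fold change of -0.24. By the adjusted p alone 8 of the 11 were lower, against 29.9% of all tested genes, and in 7 of the 11 every 24m library was below every 6m library, against 26.8%. Citrate synthase (Cs) rose by 0.69 ± 0.08 (SE; edgeR adjusted p = 0.000109), from 141 ± 10.4 to 227 ± 6.37 CPM (SD, n = 4), and Tomm22 of the import pore fell by 0.62 ± 0.16 (SE; edgeR adjusted p = 0.00624). The call of Tomm22 was lost when replicate 3 or 4 of 24m was left out, with 0 genes of the list called lower, and 2 genes were called without 24m replicate 1. No gene of the list was called lower with library totals or with quantile normalisation and DESeq2, and 2 were with the GC trend removed.

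Counts of cell markers were read against the 18.3% of all tested genes called lower and the 25.3% called higher. All 5 red blood cell genes were called lower, with a median of -1.42 and a summed level of 5426.1 to 7605.2 CPM at 6m and 1242.3 to 4156.2 CPM at 24m, and their part in the levels of the 6 genes was not tested. Of 8 astrocyte markers 6 were called higher (median 1.30), with summed levels of 2666.5 to 3494.2 and 2767.0 to 3694.9 CPM, and of 10 neuron markers 3 were called higher and 1 lower (median 0.25), with summed levels of 4999.4 to 5458.7 and 5677.6 to 6014.6 CPM. Oligodendrocyte markers had 1 of 8 called higher (median 0.03, summed 3425.9 to 4286.4 and 3704.6 to 4282.1 CPM), microglia markers 2 of 8 higher (median 0.24, 456 to 487 and 453 to 631 CPM) and endothelial markers 2 of 8 higher and 2 lower (median -0.11, 76.3 to 111 and 45.9 to 70.7 CPM). The neuron marker called lower, Tubb3, was not called with library totals, with quantile normalisation and DESeq2, with the GC trend removed or without 24m replicate 4. The counts of the last 3 lists were near or below those shares. No listed marker was at 0 in every library, and the part of these values in the levels of the 6 genes was not tested.

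The 6 genes are short, and short genes as a whole were lower at 24m. Over 16677 tested genes with an annotated length, the log2 fold change had a Pearson r of 0.38 with log2 exonic length (the union of all annotated exons), a value across genes, which are not independent replicates. Genes were split by length into 10 bins of 1667 or 1668. In the shortest bin, of 38 to 2044 bases, which holds the 6 genes, the median was -0.67 and 49.7% of genes were called lower, and in the longest bin the median was 0.52 and 7.08% were called lower. Against this group, mt-Atp8 with -0.47 lay above the median of the shortest bin and the other 5 genes, with -0.88 to -1.33, below it. Over the 13 mitochondrially encoded genes r was -0.39, a value over few genes, and mt-Atp8, the shortest, changed least. The longest of the 13, mt-Nd5 with 1824 bases, also changed little (-0.53). Of the tested genes, 22 were shorter than mt-Atp8, so a trend fitted over length rests on few genes there.

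When the trend over length was removed with a smoothed offset per library, none of the 6 genes was called. mt-Co1, mt-Co2, mt-Co3 and mt-Cytb then had log2 fold changes of -0.48, -0.55, -0.39 and -0.47 with edgeR adjusted p of 0.00379, 0.00488, 0.00666 and 0.032, under the fold threshold in each. mt-Atp6 had -0.09 (adjusted p = 0.53), and mt-Atp8 changed direction, to 0.29 (adjusted p = 0.081). mt-Co2 remained the lowest and mt-Atp6 and mt-Atp8 the highest of the 6. Removing a trend over GC content instead made the values lower, from -1.58 in mt-Co2 to -0.65 in mt-Atp8, which was then called as well (adjusted p = 0.00494).

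**Figure D4:**
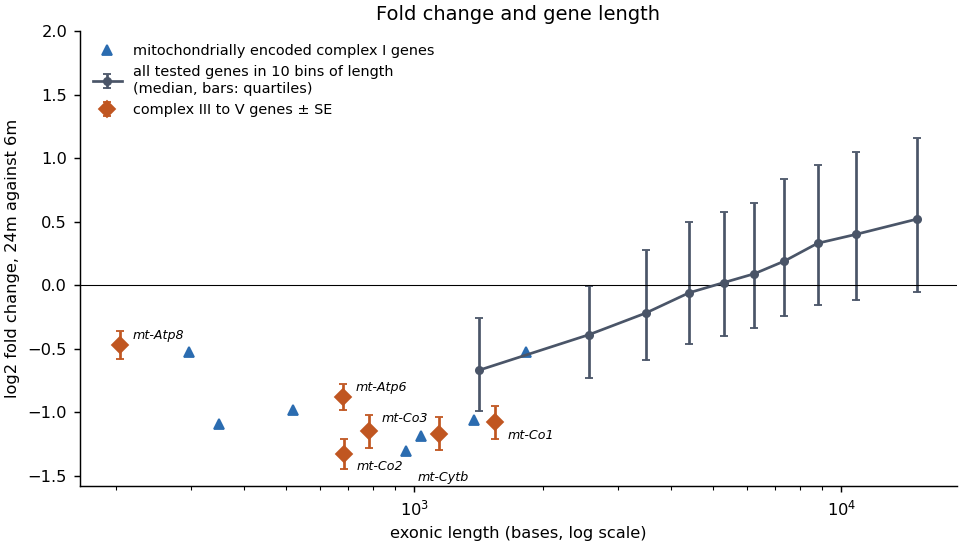
Log2 fold change (24m against 6m, edgeR) against exonic length in bases (log scale) for the tested genes in 10 bins of length (points, medians at the median length; bars, quartiles), the 6 genes of complexes III to V (diamonds with SE) and the 7 mitochondrially encoded genes of complex I (triangles). The median rises from -0.67 in the shortest bin to 0.52 in the longest, and mt-Atp8, of 204 bases, lies far from the bulk of genes in length.

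The study normalised counts by quantiles and then by row medians before its test. The alternative run here took the quantile step alone, which acts on these genes by construction. mt-Co1 and mt-Co3 held ranks 1 and 2 by count in all 8 libraries, so quantile normalisation gave each of them the same value in every library and a log2 fold change of 0.00. After quantile normalisation and DESeq2, mt-Co2 had -0.81 ± 0.12 (SE) and mt-Cytb -0.77 ± 0.17 (SE) and both were called, mt-Atp6 had -0.45 ± 0.08 (SE) and mt-Atp8 -0.09 ± 0.14 (SE). The number of the 6 genes called lower was then 2 in place of 5. Without the deepest library, 24m replicate 1, the edgeR log2 fold changes were -1.10, -1.34, -1.19, -1.13, -0.88 and -0.46 for mt-Co1, mt-Co2, mt-Co3, mt-Cytb, mt-Atp6 and mt-Atp8, and the same 5 genes were called.

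**Figure D5:**
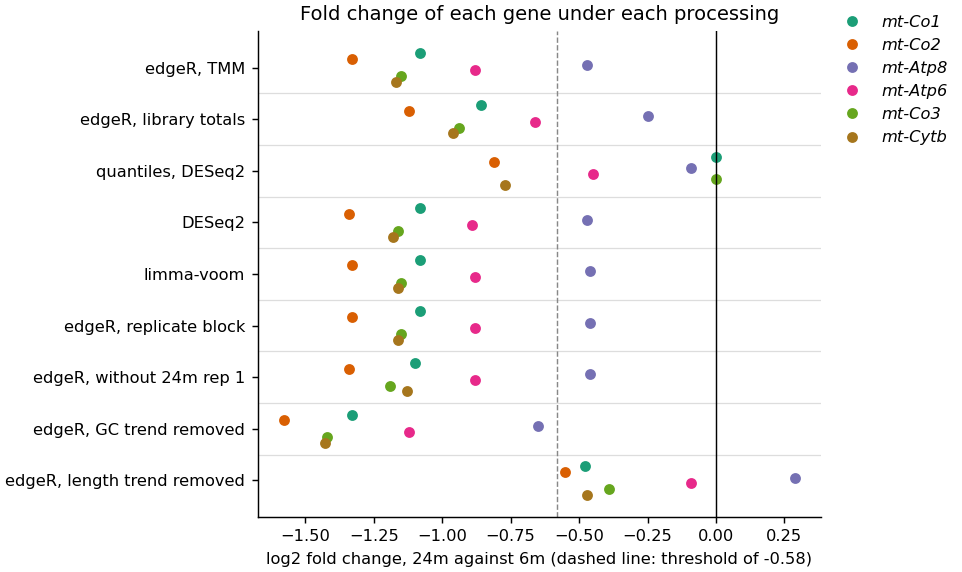
Log2 fold change (24m against 6m) of each of the 6 genes under 9 ways of processing, with the fold threshold of -0.58 as a dashed line and 0 as a solid line. mt-Co2 is lowest in all 9, quantile normalisation puts mt-Co1 and mt-Co3 at 0.00, and removing the length trend brings all 6 above the threshold and mt-Atp8 to 0.29.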

How the data were processed

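Brain RNA of 8 male mice was analysed. The deposited table holds raw counts per gene and library, which the authors made from paired-end reads with Trim Galore 0.4.11, HISAT2 2.1.0 and assembly GRCm39 (per the labels' processing notes) and featureCounts (per the methods of the study). Counts were not normalised and replicates were not pooled. Symbols, positions and lengths were taken from a later GENCODE release of that assembly, which 22281 of 22430 identifiers matched, and nuclear copies were found with BLAST+ 2.17.0.

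The 16730 genes that exceeded 5 counts in 4 or more libraries entered a quasi-likelihood fit in edgeR 4.0.16 (R 4.3.3), with age as the term, TMM factors and Benjamini-Hochberg adjustment over all of them. Log2 CPM used a prior count of 2. Count ratios were compared by exact permutation (scipy 1.17.1), adjusted over 4 ratios. The genes, the 17 other lists and the tests were chosen with earlier results of these data known, and lists are described by counts and medians. The genes named are the 6, the extremes of each list, the most abundant nuclear subunit of each complex and 5 genes by likeness, with exceptions stated where they occur.

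Alternatives were other scalings and filters, DESeq2 1.42.0, limma-voom (limma 3.58.1), quantile normalisation (without the row-median step of the study), length and GC offsets, a replicate block, thinning and each library left out. Tested on simulated data for this comparison over 16730 genes, edgeR recovered 86% of 200 genes changed by a log2 value of 1, with 9 unchanged genes called. Those data had the same dispersion for all genes and neither a length trend nor a library that stood apart. In the real data 7295 genes were called, so the simulation does not cover those conditions. Replicate counts differed by 8.25 to 426 per degree of freedom of a chi-square comparison, so each library was counted separately. Isoforms and the second cohort were not analysed here.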

Additional observations from a re-analysis of the deposited data

Results flagged for a closer look

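Of 22 sets of 4 libraries checked for a library far from the others, 2 were singled out, where about 1 in 20 is by chance. mt-Cytb had 2207.9 CPM in 24m replicate 2 against 1777.5 to 1838.2 CPM in the other 24m libraries. mt-Atp8 had 1274.3 CPM in 6m replicate 4 against 1555.4 to 1611.9 CPM in the other 6m libraries.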

How the results depend on the processing

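Of 21 alternatives, 19 gave 4 to 6 of the 6 genes called lower (5 as reported), and leaving out each library in turn gave 5 each time. The exceptions were quantile normalisation with DESeq2 (2 genes, where mt-Co1 and mt-Co3 are equal across libraries by construction) and removal of the length trend (0 genes, mt-Atp8 at 0.29; the cause was not tested). Removing the length trend also brought the genes called lower of mitochondrially encoded complex I to 0 and of nuclear complex IV to 10. It left 4 in nuclear complex III (5 as reported) and 14 in nuclear complex V (15 as reported). The median exonic length was 784 bases in the 13 mitochondrially encoded genes and 3565 bases in the nuclear subunits of complexes III, IV and V. The log2 difference in ratio ranged over the libraries left out from 0.38 to 0.45 for mt-Atp8 to mt-Atp6, -0.32 to -0.18 for mt-Co3 to mt-Atp6 and -0.28 to -0.21 for mt-Co2 to mt-Co1, each with an adjusted p of 0.0762, since the smallest exact p of 3 against 4 libraries is 0.0571. The share of the 6 genes differed by -2.84 percentage points (-2.21 as reported) relative to the counts outside the 50 most abundant genes, and by -2.38 to -2.08 with a library left out. Replicate numbers are shared by the ages in the labels, which do not say that equal numbers mark a pair. The deviations of same-numbered libraries had r of 0.271, 0.143, 0.0778 and -0.348, and 1 of 4 matched its own number best. So few values cannot decide whether the libraries were paired. With the replicate block the ratios differed by 0.41, -0.27 and -0.25 (adjusted p = 0.167 each, smallest exact p 0.125), and 7242 genes were called against 7295, of which 7082 were shared. Depth limits none of the 6 genes, which had at least 80473 counts in every library.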
